A study of Mus musculus with 2 samples.

Results

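Major histocompatibility complex (MHC) class I presentation genes are described here across the cell types of the injured mouse thalamus, with and without antibody blockade of CD9. The 9 genes (*H2-K1*, *H2-D1*, *B2m*, *Tap1*, *Tap2*, *Tapbp*, *Psmb8*, *Psmb9* and *Nlrc5*) were taken by symbol from the 33696 gene rows of the count tables, and all 9 were found in both libraries. Both libraries were 10x Genomics 3′ single-cell RNA-seq of live CD45 positive cells sorted from the thalamus, and the mice (C57B6/J) had undergone cortical ablation injury (CAI, surgical removal of cortex). Mice received normal rat IgG (control Ab) or the anti-CD9 antibody clone KMC8 (anti-CD9 Ab), each at 1.0 µg/µl, through a cannula into the thalamus from day 7 to day 19, and cells were collected on day 21. Both groups thus shared the injury, the cannula and a rat antibody, and the labels give no age. By the study's methods, cells of several mice were pooled into a library, and each group was 1 library. No test between the antibodies was therefore possible, antibody, pool of mice and library cannot be told apart, and every 95% interval below covers counting error only.

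Class I molecules display peptides from inside the cell to CD8 T cells. The immunoproteasome, with catalytic subunits encoded by *Psmb8* and *Psmb9*, cuts proteins into peptides, and the transporter formed by TAP1 and TAP2 carries them into the endoplasmic reticulum. There tapasin (*Tapbp*) holds the empty heavy chain (H2-K or H2-D, paired with β2-microglobulin from *B2m*) at the transporter until a peptide binds. NLRC5 is the transactivator of this gene set, and interferon-γ is a known inducer of it. In the resting brain, microglia are known for low class I levels that rise in inflammation.

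The upstream sequences of 4 of the genes are shown first, because *H2-K1* and *H2-D1* have similar promoters and *Tap1* and *Psmb9* share 1, and these pairs are read side by side below. Promoter windows (250 bases before to 50 after the start, from RefSeq, mouse build GRCm38.p6) were found for 7 of the 9 genes, with *B2m* on chromosome 2 and the others on chromosome 17. Both strands were searched for the κB core GGGATTCCC and for the interferon regulatory factor site GAANNGAAA. They were also searched for the core TGACG, which resembles that of a cyclic AMP response element (CRE-like). The last of the 4 motifs was the CCAAT box. In the stretches printed here, all of them upstream of the start, the matches are in capitals and do not overlap.

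H2-K1 upstream stretch (chr17:34000348-34000467, minus strand): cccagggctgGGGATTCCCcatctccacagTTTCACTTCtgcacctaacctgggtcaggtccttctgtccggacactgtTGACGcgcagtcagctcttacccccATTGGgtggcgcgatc
H2-D1 upstream stretch (chr17:35262914-35263093, plus strand): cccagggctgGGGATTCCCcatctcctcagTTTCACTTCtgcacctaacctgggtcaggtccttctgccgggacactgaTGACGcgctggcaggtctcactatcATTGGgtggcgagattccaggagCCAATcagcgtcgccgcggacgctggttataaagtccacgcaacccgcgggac
Stretch between the starts of Psmb9 and Tap1 (chr17:34187331-34187555, plus strand): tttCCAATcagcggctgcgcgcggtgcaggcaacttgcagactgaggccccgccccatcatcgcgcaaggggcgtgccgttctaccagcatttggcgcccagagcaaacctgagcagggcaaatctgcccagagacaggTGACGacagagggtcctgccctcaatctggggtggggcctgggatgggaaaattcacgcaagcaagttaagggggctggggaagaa

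The windows of *H2-K1* and *H2-D1* were identical at 211 of 239 aligned bases (88.3%), and both held all 4 motifs in the same order. None of the other 5 windows held the κB or the interferon regulatory factor letters. Among 32851 RefSeq windows of the same length, 0.353% held the κB letters, 7.52% the interferon regulatory factor letters, 20.8% the CRE-like core and 37.4% the CCAAT box. The CRE-like core was present in 5 of the 7 windows and the CCAAT box in 6. *Tap1* and *Psmb9* are transcribed away from each other with 225 bases between their starts, so that their windows shared 275 bases. A match describes the letters only.

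Of 12245 barcodes in the control Ab library and 15173 in the anti-CD9 Ab library, 7467 and 9162 passed the quality limits, with medians of 1880 and 1419 unique molecular identifiers (UMIs, counts of captured mRNA molecules) per cell. The libraries shared 18 barcode sequences among kept cells. Of 26 clusters, built without the genes of the class I pathway, 19 took a cell type name from markers, and 960 and 1598 cells stayed unnamed. Microglia-like cells numbered 1983 with control Ab against 899 with anti-CD9 Ab, and T cell-like cells 3114 and 1054. Monocyte/macrophage-like cells numbered 209 and 1259, and neutrophil-like cells 67 and 3490. Although cells were sorted for CD45, 429 and 77 cells were astrocyte-like and 302 and 92 were oligodendrocyte-like.

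Class I presentation transcripts were counted in every named cell type. Levels are given as CPM, the UMIs of a gene scaled to 1e6 UMIs of that cell type and library. With control Ab, the 9 genes together reached 13206 CPM in monocyte/macrophage-like, 11970 in T cell-like, 10332 in NK cell-like and 9908 in microglia-like cells. Lower sums were found in dendritic cell-like (9361 CPM), B cell-like (9109), neutrophil-like (7668) and plasma cell-like cells (6838), and the lowest in oligodendrocyte-like (4507) and astrocyte-like cells (2287). In this order, NK cell-like and microglia-like cells, and dendritic cell-like and B cell-like cells, were neighbours whose intervals overlapped.

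With anti-CD9 Ab, T cell-like cells stood highest (12460 CPM), followed by microglia-like (11832), monocyte/macrophage-like (11331), neutrophil-like (10647), dendritic cell-like (10300) and NK cell-like cells (10259). B cell-like (7417 CPM), plasma cell-like (6854), oligodendrocyte-like (5735) and astrocyte-like cells (2952) followed. Only the intervals of dendritic cell-like and NK cell-like cells overlapped between neighbours. Microglia-like cells thus stood below NK cell-like cells with control Ab, where their intervals overlapped, but above them with anti-CD9 Ab. Over the types with at least 50 cells, *H2-K1* was highest in T cell-like cells and lowest in astrocyte-like cells (5009 and 795 CPM with control Ab). *Psmb8* and *Psmb9* were highest in dendritic cell-like cells in both libraries, although for *Psmb8* with control Ab the interval overlapped that of T cell-like cells. *Nlrc5* was lowest in plasma cell-like cells in both libraries (24.3 and 29.5 CPM) and highest in T cell-like cells with control Ab (211 CPM) and in neutrophil-like cells with anti-CD9 Ab (334 CPM). The interval of oligodendrocyte-like cells overlapped that of plasma cell-like cells with control Ab, and that of neutrophil-like cells with anti-CD9 Ab.

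In microglia-like cells, each of the 9 genes had a higher CPM with anti-CD9 Ab. The log2 of the anti-CD9 Ab level divided by the control Ab level (log2 ratio) had a median of 0.34 (0.22 to 0.46, the interval of *Psmb9*, the median gene), beside 0.02 over the 11312 genes with at least 50 UMIs in these cells. *Nlrc5* alone passed 1.5-fold, the limit used here for a call, and *Tap1* passed it too under the mean over cells (0.66) and with cells thinned to equal depth (0.79). Of all genes measured in microglia-like cells, 9.18% were called higher and 9.79% lower, so that 1 of 9 was close to the background share.

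Among the genes of the presented complex, *H2-K1*, a classical heavy chain, stood at 3230 CPM (3197 to 3264) with control Ab against 4039 CPM (3971 to 4109) with anti-CD9 Ab, giving a log2 ratio of 0.32 (0.29 to 0.35). *B2m*, the light chain of all class I molecules, stood at 2988 and 3784 CPM (0.34, 0.31 to 0.37). *H2-D1*, the other classical heavy chain, stood at 2782 and 2804 CPM (0.01, −0.02 to 0.04). *H2-K1* and *B2m* were thus higher with anti-CD9 Ab beyond counting error, while the interval of *H2-D1* held 0.

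Both transporter genes were higher with anti-CD9 Ab. *Tap1* stood at 112 and 163 CPM (0.54, 0.40 to 0.69) and *Tap2* at 81.0 and 114 CPM (0.49, 0.32 to 0.66). *Tapbp*, which bridges transporter and heavy chain, stood at 174 and 199 CPM (0.19, 0.06 to 0.32). The immunoproteasome subunits had ratios nearer to 0 than *Tap1* and *Tap2*. *Psmb9* stood at 186 and 235 CPM (0.34, 0.22 to 0.46) and *Psmb8* at 271 and 296 CPM (0.13, 0.02 to 0.23). The intervals of *Tap1* and *Psmb9*, which share the stretch shown above, overlapped over all microglia-like cells. The transactivator gene *Nlrc5* had the highest ratio of the 9, with 83.3 CPM (78.1 to 88.9) with control Ab against 199 CPM (184 to 215) with anti-CD9 Ab, 2.38-fold higher (log2 ratio 1.25, 1.11 to 1.40).

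**Figure D1:**
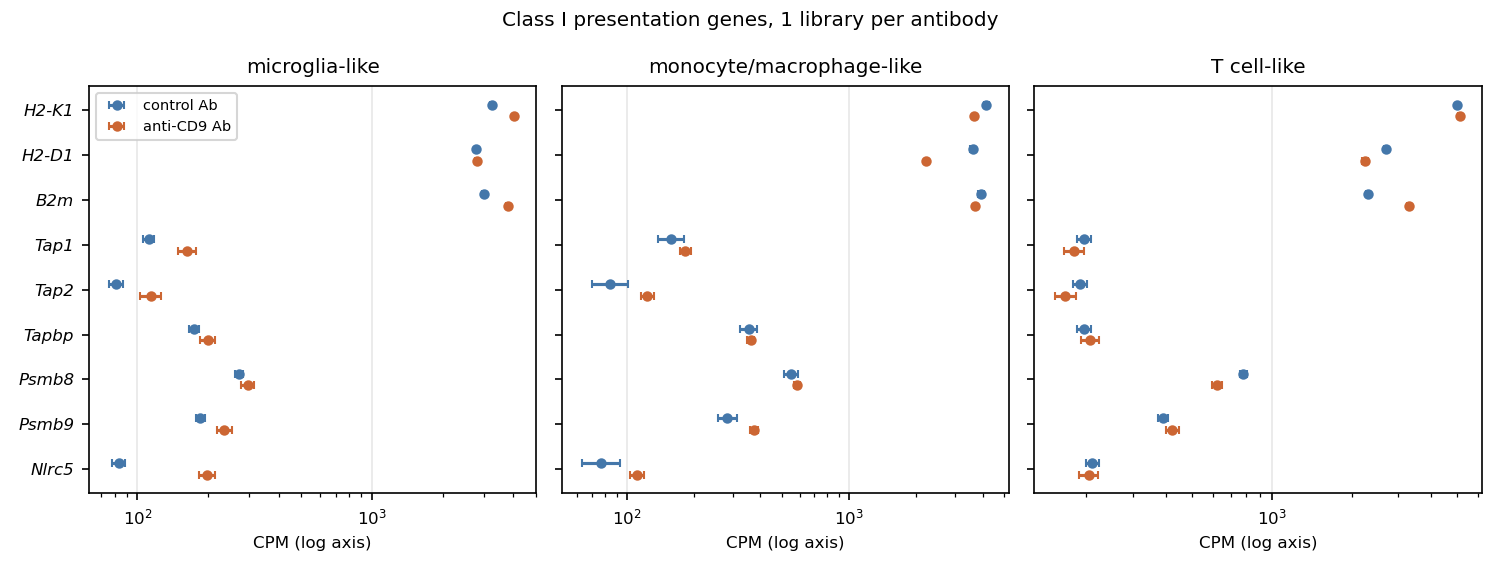
Level of each gene (CPM, log axis) in microglia-like, monocyte/macrophage-like and T cell-like cells of the control Ab library (blue) and the anti-CD9 Ab library (orange), with 95% Poisson intervals that cover counting error only. In microglia-like cells *Nlrc5* stood at 83.3 and 199 CPM and *H2-D1* at 2782 and 2804 CPM, and in monocyte/macrophage-like cells *H2-D1* stood at 3603 and 2228 CPM.

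To compare single cells at equal depth, each cell was thinned to 1000 UMIs, which left out 40 and 23 shallower microglia-like cells. The median microglia-like cell then held 8 UMIs of the 9 genes with control Ab (10th to 90th percentile 2 to 17) and 11 with anti-CD9 Ab (6 to 20). Cells with no more than 2 such UMIs were 13.7% (12.2 to 15.3%) of 1943 control Ab cells, against 1.48% (0.79 to 2.52%) of 876 anti-CD9 Ab cells. In T cell-like cells the median was 12 UMIs in both libraries, and 0.58% and 0.51% of cells held no more than 2.

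Among the microglia-like clusters, the ratio of the summed genes was highest in cluster 1, led by *Siglech* and *P2ry12*, genes known from homeostatic microglia. This cluster held 1029 cells with control Ab (51.9% of microglia-like cells) and 594 with anti-CD9 Ab (66.1%). The 9 genes together stood at 6557 and 10284 CPM in it (log2 ratio 0.65, 0.62 to 0.68). All 9 had intervals above 0, and 6 were called higher, where 8.21% of all genes measured in the cluster were called higher and 10.4% lower. *Nlrc5* stood at 58.6 and 218 CPM (1.90, 1.67 to 2.13), *Tap1* at 73.7 and 150 CPM (1.03, 0.80 to 1.26) and *H2-K1* at 2112 and 3536 CPM (0.74, 0.70 to 0.79). *B2m* (0.70), *Tap2* (0.59) and *Psmb9* (0.59, 0.41 to 0.77) were the other genes called. The intervals of *Tap1* and *Psmb9* did not overlap in this cluster. *H2-D1* stood at 1819 and 2437 CPM (0.42, 0.37 to 0.47), beside *Psmb8* at 0.47 and *Tapbp* at 0.40. Cells with no more than 2 UMIs of the 9 genes per 1000 were 24.9% (22.2 to 27.6%) of cluster 1 with control Ab, against 1.54% (0.71 to 2.91%) with anti-CD9 Ab.

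Cluster 6, led by *Lpl*, *Spp1* and *Cst7*, genes known from disease-associated microglia, had a higher level than cluster 1 in both libraries. It held 839 and 217 cells (42.3% and 24.1%), and the 9 genes stood at 11632 and 14265 CPM (0.29, 0.27 to 0.32). All 9 were above 0, *Nlrc5* alone was called (98.5 and 167 CPM, 0.76), and the background was 8.96% higher and 13.1% lower. Cluster 18, led by *Sdk1* and *Top2a*, a gene of dividing cells, held 115 and 88 cells. It stood at 13190 and 14781 CPM (0.16, 0.11 to 0.22), with 7 of 9 genes above 0 and *Nlrc5* alone called (1.03, 0.46 to 1.60), beside a background of 15.1% higher and 12.1% lower.

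The distance between cluster 6 and cluster 1 in the summed genes was 0.83 on the log2 scale with control Ab, against 0.47 with anti-CD9 Ab. For *Nlrc5* it was 0.75 with control Ab, against −0.39 with anti-CD9 Ab, so that *Nlrc5* was lower in cluster 1 than in cluster 6 in the control Ab library and higher in the anti-CD9 Ab library. The clusters took different shares of the microglia-like cells in the libraries, and values over all of them mix the clusters. *H2-D1*, at 0.01 over all microglia-like cells, was at 0.42 in cluster 1, 0.08 (0.02 to 0.13) in cluster 6 and −0.11 (−0.22 to 0.00) in cluster 18.

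**Figure D2:**
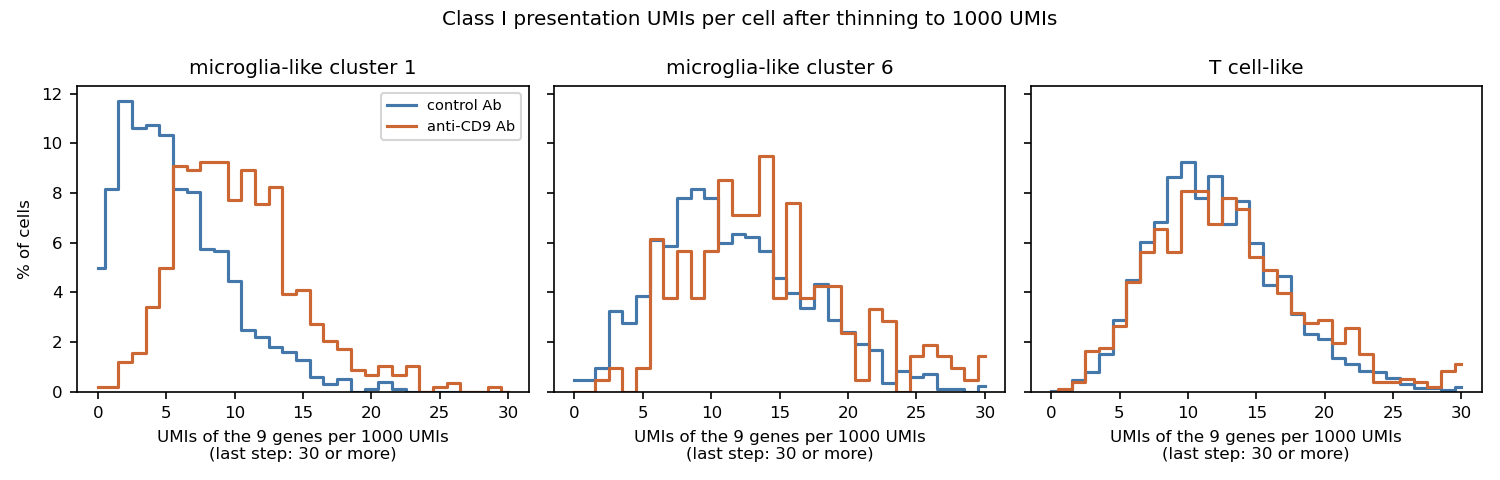
Share of cells (y axis, %) by the number of UMIs of the 9 genes per cell after thinning to 1000 UMIs (x axis, last step 30 or more), with control Ab in blue and anti-CD9 Ab in orange. The median was 5 and 10 UMIs in microglia-like cluster 1, 11 and 13 in cluster 6, and 12 with both antibodies in T cell-like cells.

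The 12 microglia markers, all detected, summed to 14605 CPM with control Ab against 9108 CPM with anti-CD9 Ab in microglia-like cells, and the part of this in the ratios was not tested. Markers of other cell types were counted in these cells as well. All 12 neutrophil markers were detected in both libraries, at a sum of 668 CPM with control Ab against 1249 CPM with anti-CD9 Ab. All 10 T cell markers (238 and 41.8 CPM) and all 7 plasma cell markers (1531 and 371 CPM) were detected too, at lower levels with anti-CD9 Ab. In cluster 1 with anti-CD9 Ab, the neutrophil markers stood at 3.69% of their level in neutrophil-like cells. That percentage of the neutrophil-like level is 393 CPM of the 9 genes and 12.3 CPM of *Nlrc5*, against 10284 and 218 CPM counted. Summed in this way over neutrophil, monocyte, T cell and plasma cell markers, other cells would bring 574 CPM of the 9 genes to cluster 1 with control Ab against 726 CPM with anti-CD9 Ab, and 4.98 and 15.8 CPM of *Nlrc5*. Over all microglia-like cells the sum went the other way, with 1613 and 754 CPM of 9908 and 11832 CPM counted. In cluster 6 it was 1858 and 764 CPM, of 11632 and 14265 CPM counted. Monocyte markers gave 1256 CPM of the control Ab sum over all microglia-like cells and 1514 CPM of that in cluster 6. In microglia-like cells they stood at 154 and 186 CPM, against 1615 and 5922 CPM in monocyte/macrophage-like cells. The level in the class compared with thus differed between the libraries, and the percentages changed with it. The sums are not read as amounts of RNA from other cells. Such sums take all UMIs of these markers as coming from those cells, which was not tested. Macrophage markers did not enter the sums. They stood at 2384 and 1835 CPM in microglia-like cells, beside 22588 and 20999 CPM in monocyte/macrophage-like cells.

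After thinning, a *Nlrc5* UMI was found in 6.79% (5.71 to 8.0%) of microglia-like cells with control Ab, against 15.6% (13.3 to 18.2%) with anti-CD9 Ab (26.0% and 43.7% unthinned, at medians of 3261 and 3367 UMIs). In oligodendrocyte-like cells the share was 3.23% of 155 cells and 16.1% (5.45 to 33.7%) of 31 cells (5.96% and 22.8% unthinned, at medians of 1022 and 848 UMIs). The share in microglia-like cells with anti-CD9 Ab was not above that of the few oligodendrocyte-like cells of the same library, and is not read as a share of expressing cells.

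In monocyte/macrophage-like cells, a single cluster led by *Arg1* and *F13a1*, the genes pointed in different directions. The median log2 ratio was 0.08 (−0.03 to 0.19, *Psmb8*), beside −0.03 over the 9076 genes measured there, and 6 of 9 genes were above 0. *H2-D1* was the 1 member called, with 3603 CPM (3504 to 3706) with control Ab against 2228 CPM (2192 to 2264) with anti-CD9 Ab, 1.62-fold lower (log2 ratio −0.69, −0.74 to −0.65). Of all genes measured in these cells, 15.9% were called higher and 16.5% lower, so that 1 of 9 was close to the background share.

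*H2-K1* (4158 and 3662 CPM, −0.18) and *B2m* (3935 and 3706 CPM, −0.09) also had intervals below 0. The transporter genes and the transactivator gene stood on the other side of 0. *Tap2* stood at 84.2 and 124 CPM (0.56, 0.28 to 0.84), *Tap1* at 158 and 183 CPM (0.21, 0.00 to 0.42) and *Nlrc5* at 76.9 and 111 CPM (0.53, 0.23 to 0.82). Of the immunoproteasome subunits, *Psmb9* stood at 284 and 373 CPM (0.39, 0.24 to 0.55) and *Psmb8* at 551 and 583 CPM, and *Tapbp* stood at 354 and 361 CPM (0.03, −0.11 to 0.17). The cells of this class differed in other genes too. The 10 monocyte markers, all detected, summed to 1615 CPM with control Ab against 5922 CPM with anti-CD9 Ab, and the 12 microglia markers to 4048 and 874 CPM. Their part in these ratios was not tested.

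In T cell-like cells, the median log2 ratio was −0.05 (−0.19 to 0.09, *Nlrc5*), beside −0.08 over the 9949 genes measured, with 4 of 9 genes above 0. None of the 9 was called, where 6.73% of all genes were called higher and 9.80% lower. *B2m* had the highest ratio (2306 and 3292 CPM, 0.51, 0.48 to 0.55). It passed 1.5-fold when centred on the median of all genes (0.59) and within T cell-like clusters 8 (0.62), 9 (0.83) and 12 (0.59). *Psmb8* (781 and 622 CPM, −0.33, −0.41 to −0.25) and *H2-D1* (2695 and 2252 CPM, −0.26, −0.30 to −0.22) had the lowest. The other 6 genes lay between *Tap2* (189 and 166 CPM, −0.18) and *Psmb9* (389 and 421 CPM, 0.12), with *H2-K1* at 5009 and 5118 CPM (0.03), *Tap1* at 196 and 180 CPM (−0.12), *Tapbp* at 196 and 206 CPM (0.08) and *Nlrc5* at 211 and 204 CPM. *B2m* was above 0 and *H2-D1* and *Psmb8* were below 0 in each of the 5 T cell-like clusters.

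**Figure D3:**
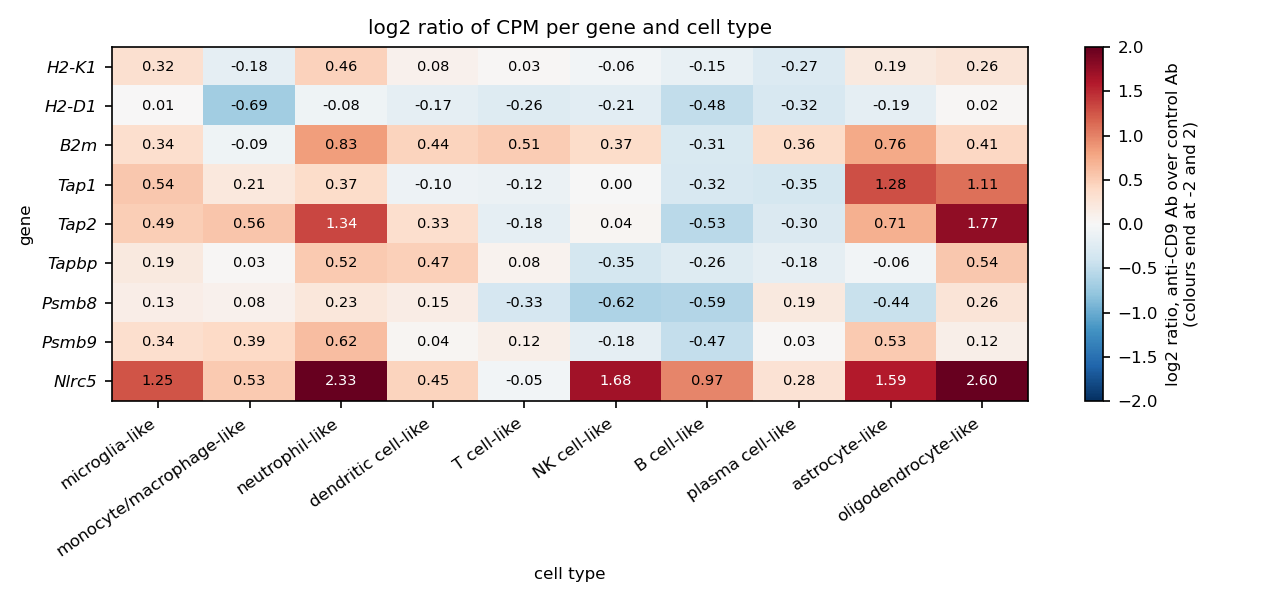
log2 of the anti-CD9 Ab CPM divided by the control Ab CPM for each gene (rows) in each named cell type (columns), red for higher and blue for lower with anti-CD9 Ab. *Nlrc5* was above 0 in 9 of 10 types (T cell-like −0.05), *B2m* in 8 of 10 and *H2-D1* in 2 of 10. Intervals, which cover counting error only, were above 0 in 7 types for *Nlrc5*, 8 for *B2m* and 0 for *H2-D1*. *Nlrc5* was under 50 UMIs in NK cell-like and B cell-like cells. The types come from the same 2 libraries and are not replicates.

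Neutrophil-like cells were few in the control Ab library. There, 8 of 9 genes were above 0 and 4 were called higher, beside a background of 20.6% higher and 38.9% lower. These were *Nlrc5* (5 and 1387 UMIs, 66.4 and 334 CPM, log2 ratio 2.33, 1.06 to 3.6), *Tap2* (6 and 839 UMIs, 1.34, 0.18 to 2.50), *B2m* (2126 and 3784 CPM, 0.83, 0.61 to 1.06) and *Psmb9* (0.62, −0.05 to 1.29). *H2-D1* was at −0.08 (−0.29 to 0.13). Of the 67 control Ab cells, 56 lay in cluster 4 (led by *Retnlg* and *S100a8*), while the anti-CD9 Ab cells were spread over cluster 3 (1337 cells, led by *Cxcl2* and *Ccl4*), cluster 4 (1249) and cluster 7 (904, led by *Gdf15*). Within cluster 4 the summed genes stood at 6620 and 8255 CPM (0.32, 0.18 to 0.46). Cluster 3 stood at 16120 and 13105 CPM (−0.30, −0.56 to −0.03), on 7 control Ab cells. Cluster 7 stood at 9257 and 9443 CPM (0.03, −0.41 to 0.47), on 4 control Ab cells. *B2m* passed 1.5-fold in none of these clusters. It was at 0.50 (0.23 to 0.76) in cluster 4, 0.10 (−0.40 to 0.60) in cluster 3 and 0.38 (−0.44 to 1.20) in cluster 7. *Nlrc5*, *Tap2* and *Psmb9* passed it in cluster 4, on 3, 3 and 13 control Ab UMIs. The median log2 ratio over genes with at least 50 UMIs and counts in both libraries was 0.10 in cluster 4, −1.02 in cluster 3 and −0.96 in cluster 7.

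In dendritic cell-like cells, 7 of 9 genes were above 0 and none was called (background 15.2% higher, 12.0% lower). *Tapbp* stood at 266 and 369 CPM (0.47, 0.23 to 0.71), *Nlrc5* at 136 and 186 CPM (0.45, 0.11 to 0.79) and *B2m* at 1998 and 2710 CPM (0.44, 0.35 to 0.53). These cells lay in cluster 15 (103 and 215 cells) and cluster 19 (17 and 162). Within them *Nlrc5* was at 0.37 (−0.03 to 0.77) and −0.37 (−1.07 to 0.32), and *B2m* at 0.29 (0.19 to 0.39) and 0.21 (−0.01 to 0.44). The class ratio of *Nlrc5* thus mixes clusters of opposite sign, and both intervals held 0. The immunoproteasome subunits stood at 834 and 927 CPM (*Psmb8*, 0.15) and 622 and 638 CPM (*Psmb9*, 0.04).

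In plasma cell-like cells none of the 9 was called (background 18.7% higher, 10.1% lower). *B2m* stood at 2413 and 3095 CPM (0.36, 0.30 to 0.42), and both heavy chains had intervals below 0 (*H2-K1* −0.27, *H2-D1* −0.32). Neutrophil markers in these cells stood at 5399 and 15295 CPM, 6.27% and 38.3% of their level in neutrophil-like cells (86084 and 39962 CPM). Monocyte markers stood at 645 and 661 CPM, 39.9% and 11.2% of their level in monocyte/macrophage-like cells (1615 and 5922 CPM). The levels in the classes compared with thus differed between the libraries, and the percentages changed with them. At the percentages of neutrophil, monocyte and T cell markers together, other cells would bring 6280 and 5413 CPM of the 9 genes, of 6838 and 6854 CPM counted. Of the control Ab sum, 5274 CPM came from the monocyte markers. Macrophage markers stood at 70.8 and 248 CPM, beside 22588 and 20999 CPM in monocyte/macrophage-like cells. Monocyte markers were also at 1347 CPM in T cell-like cells with control Ab. The sums are thus not read as amounts of RNA from other cells.

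NK cell-like cells (102 and 75) had *B2m* at 0.37 (0.18 to 0.56) and *Psmb8* called lower (642 and 418 CPM, −0.62, −1.03 to −0.20), with a background of 14.7% higher and 10.9% lower. B cell-like cells (31 and 98, of which 31% were predicted doublets) had 8 of 9 genes below 0. The median over all genes with at least 50 UMIs was 0.09 there. *Psmb8* was the lowest member (600 and 399 CPM, −0.59, −1.06 to −0.12). No background share is given for this type, so no call is reported for it. *Nlrc5* and *Tap2* were under 50 UMIs in both types, as were *Tap1* in NK cell-like and *Tapbp* in B cell-like cells.

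In astrocyte-like cells, *B2m* (618 and 1044 CPM, 0.76, 0.44 to 1.08) and *Nlrc5* (43 and 15 UMIs, 1.59, 0.74 to 2.44) were called higher, beside a background of 11.4% higher and 21.4% lower. In oligodendrocyte-like cells all 9 genes were above 0 and *Nlrc5* was called (24 and 28 UMIs, 42.9 and 260 CPM, 2.60, 1.81 to 3.39), beside 14.1% higher and 20.6% lower. Markers of immune cells were counted in both. Neutrophil markers stood at 153 and 2031 CPM in astrocyte-like and at 247 and 5772 CPM in oligodendrocyte-like cells. Macrophage markers stood at 226 and 4220 CPM in astrocyte-like cells and at 917 and 1487 CPM in oligodendrocyte-like cells, beside 22588 and 20999 CPM in monocyte/macrophage-like cells. Other markers were lower with anti-CD9 Ab. In astrocyte-like cells these were microglia (1980 and 673 CPM), T cell (741 and 258 CPM) and plasma cell markers (3451 and 920 CPM). In oligodendrocyte-like cells the same markers stood at 3617 and 1459, 1048 and 679, and 8013 and 744 CPM. At the percentages at which neutrophil, monocyte, T cell and plasma cell markers were present, these cells would bring 2320 and 1404 CPM of the 9 genes to astrocyte-like cells, of 2287 and 2952 CPM counted. For oligodendrocyte-like cells these values were 3668 and 3784 CPM, of 4507 and 5735 CPM counted, and for *Nlrc5* 35.4 and 76.7 CPM, of 42.9 and 260 CPM counted. The control Ab sum for astrocyte-like cells exceeded the level counted, and 1401 CPM of it came from monocyte markers. The sums are thus not read as amounts of RNA from other cells. Macrophage and microglia markers did not enter these sums, and their part in the ratios was not tested.

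The cells that took no name (960 and 1598) had all 9 genes above 0 and 7 called higher, beside a background of 18.3% higher and 32.9% lower. Their summed level was 5383 and 8936 CPM, a log2 ratio of 0.73 (0.70 to 0.76). The clusters in this group took different shares of each library, and 1 of them, led by *Ttr* and *Mcpt2*, held 33 and 1198 cells. Within that cluster the sum was 10981 and 9493 CPM (−0.21, −0.32 to −0.10). In the other unnamed clusters with cells in both libraries, the ratio was 1.35 (1.22 to 1.48) in cluster 14, led by *Kcnip4* and *Opcml*, 0.86 (0.33 to 1.39) in cluster 23, 0.22 (0.14 to 0.29) in cluster 17, 0.02 (−0.09 to 0.14) in cluster 10 and −1.28 (−2.73 to 0.17) in cluster 25. The sign thus differed among the unnamed clusters. Cluster 14 had 7 of 8 astrocyte markers and 7 oligodendrocyte markers up, a tie. Its leading genes also held the neuron markers *Kcnip4*, *Meg3* and *Nrg3* and no astrocyte marker. Either was enough to leave it unnamed.

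*H2-D1* was lower relative to *H2-K1* with anti-CD9 Ab in all 10 named cell types. These types come from the same 2 libraries and are not replicates, and how often other gene pairs keep a sign over all types was not counted. The log2 ratio of *H2-D1* minus that of *H2-K1* lay between −0.54 (neutrophil-like) and −0.05 (plasma cell-like), with a median of −0.30, and its interval was below 0 in 6 of the 10. It was −0.31 (−0.36 to −0.27) in microglia-like, −0.51 (−0.57 to −0.45) in monocyte/macrophage-like and −0.29 (−0.34 to −0.24) in T cell-like cells. These heavy chain genes have the similar upstream stretches shown above, and reads of this assay fall at the 3′ ends. In each member, 0 of 411 windows of 90 bases in the last 500 bases of its longest coding transcript (GENCODE vM21) occurred unchanged in a transcript of another gene. Windows that differ by few bases were not counted, and whether reads were assigned to the wrong gene was not tested. *B2m* was higher relative to *H2-K1* in 9 of 10 types (median 0.37, from −0.15 in B cell-like to 0.63 in plasma cell-like cells), with an interval above 0 in 7.

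**Figure D4:**
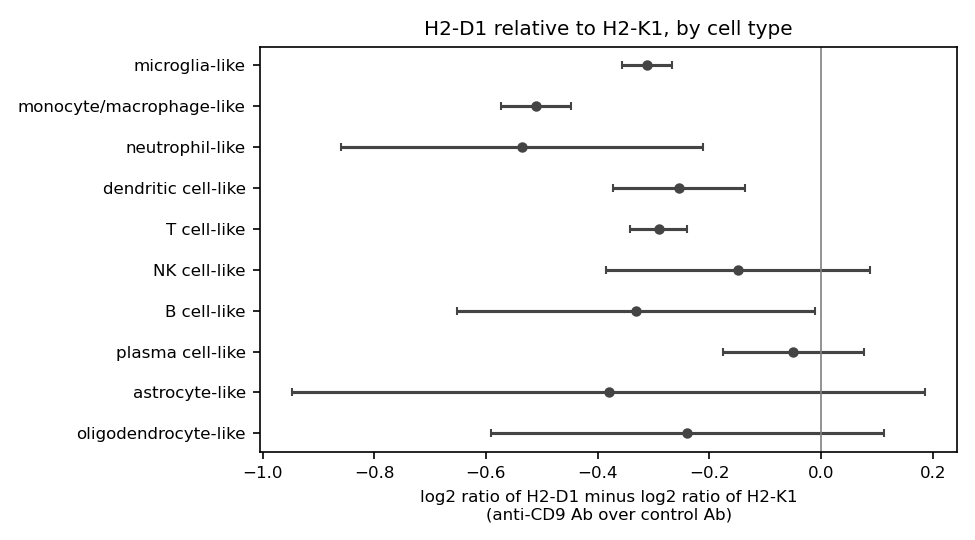
Difference between the log2 ratios of *H2-D1* and *H2-K1* (x axis) in each named cell type (y axis), with 95% intervals that cover counting error only. All 10 points lie below 0, from −0.54 to −0.05, and 6 intervals do not reach 0.

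Over all kept cells, the 9 genes together stood at 9443 and 10747 CPM (log2 ratio 0.19, 0.18 to 0.19), while the median over all 15136 genes measured was −0.37. *Nlrc5* (0.80) and *Tapbp* (0.81) were called higher, beside a background of 11.7% higher and 37.4% lower. This comparison mixes cell types at different shares. With each of the 26 clusters given its control Ab share of UMIs in both libraries, the summed ratio was 0.23. With the anti-CD9 Ab shares it was −0.02. The anti-CD9 Ab shares give weight to neutrophil-like clusters 3 and 7, whose control Ab levels come from 7 and 4 cells. Cluster 24, with 0 control Ab cells, entered at a control Ab level of 0. *Tapbp* was at 0.21 under either set of shares. *Nlrc5* was at 0.75 with the control Ab shares and 0.70 with the anti-CD9 Ab shares, and *H2-D1* was at −0.02 and −0.38.

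Other genes of the pathway were read from lists in microglia-like and monocyte/macrophage-like cells. Of 13 further class I heavy chain genes, 9 had at least 50 UMIs in microglia-like cells, with a median log2 ratio of 0.44. *H2-Q4* was called higher (76.2 and 126 CPM, 0.72, 0.55 to 0.89), and *Cd1d1*, which presents lipids, was called lower on 53 and 8 UMIs (−0.96, −2.03 to 0.11). In monocyte/macrophage-like cells the median was 0.15 over 8 genes. *Cd1d1* was the highest there and called, on 3 and 51 UMIs (1.80, 0.12 to 3.48), and *H2-T23*, a non-classical heavy chain, was the lowest (424 and 315 CPM, −0.43, −0.56 to −0.30).

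The proteasome genes differed by kind in microglia-like cells. The 5 partners of the immunoproteasome (*Psmb10*, its assembly factor *Pomp* and the PA28 activator genes) were all above 0, with a median of 0.38 and none called. They ranged from *Pomp* (216 and 231 CPM, 0.10, −0.02 to 0.21) to *Psme1* (173 and 235 CPM, 0.44, 0.32 to 0.56). The 14 constitutive core subunits had a median of 0.04, and none was called. They ranged from *Psmb6*, the subunit that PSMB9 replaces (121 and 98.3 CPM, −0.30, −0.48 to −0.13), to *Psmb7* (44.2 and 55.2 CPM, 0.32, 0.08 to 0.57). In monocyte/macrophage-like cells the partners had a median of 0.20, from *Pomp* (0.07) to *Psme2* (356 and 472 CPM, 0.41). The core had a median of 0.01 there, from *Psmb6*, called lower (282 and 168 CPM, −0.75), to *Psma6* (123 and 164 CPM, 0.42).

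Of 9 genes for folding and peptide trimming in the endoplasmic reticulum, 2 were called higher in microglia-like cells (median 0.19), beside 9.18% of all genes. *Tapbpl*, a tapasin-related peptide editor, stood at 26.2 and 41.2 CPM (0.66, 0.36 to 0.95), and *Ero1a*, an oxidase for disulfide bonds, at 28.6 and 44.9 CPM (0.65, 0.37 to 0.93). *Pdia3*, which pairs with tapasin, was the lowest (528 and 492 CPM, −0.10, −0.18 to −0.02). In monocyte/macrophage-like cells 3 were called higher, beside 15.9% of all genes, while the median was −0.18. *Ero1a* was the highest (36.6 and 159 CPM, 2.11, 1.71 to 2.52) and *Pdia3* the lowest (471 and 344 CPM, −0.45, −0.58 to −0.33).

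**Figure D5:**
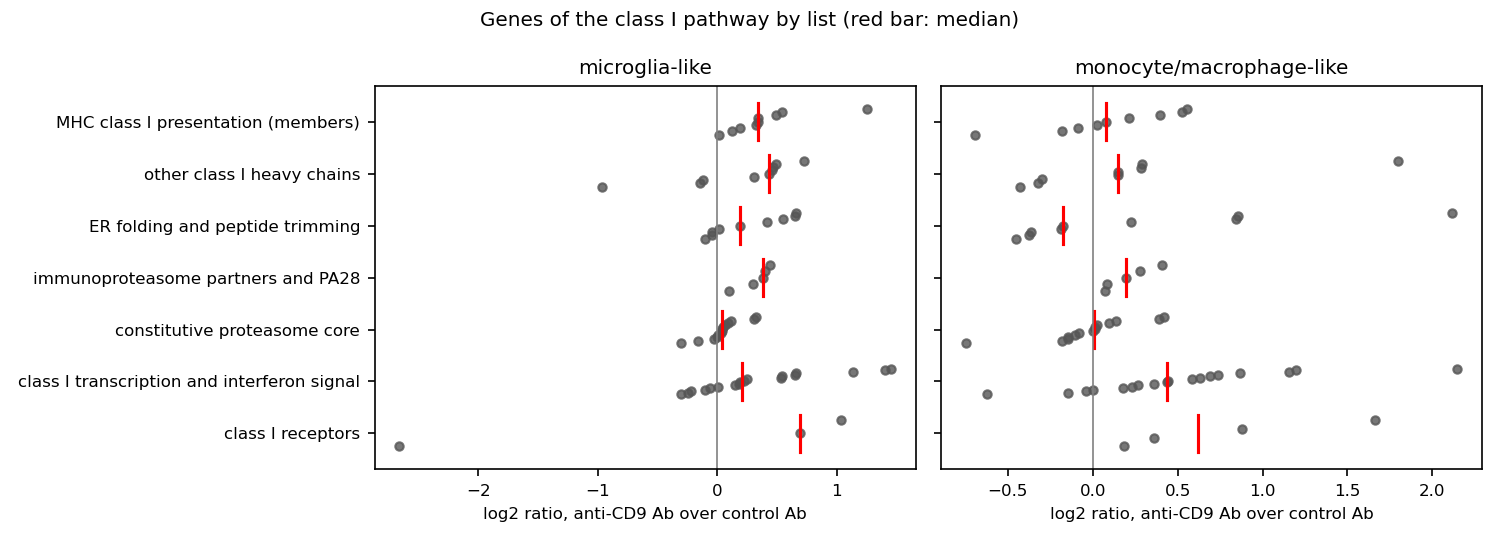
log2 ratio of anti-CD9 Ab to control Ab (x axis) of each pathway gene with at least 50 UMIs, by list (rows), in microglia-like and monocyte/macrophage-like cells, with red bars for the medians. In microglia-like cells the class I presentation genes had a median of 0.34 and the constitutive proteasome core one of 0.04, and in monocyte/macrophage-like cells these medians were 0.08 and 0.01.

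Genes of class I transcription and interferon signalling included a ratio above that of *Nlrc5* in microglia-like cells, that of *Stat2*. Of 18 such genes, 5 were called higher there and none lower (median 0.21), beside 9.18% and 9.79% of all genes. *Irf1*, a transcription factor induced by interferon, stood at 93.6 and 206 CPM (1.14, 1.00 to 1.28). *Stat2* (1.40), *Ifnar1* (0.66) and *Jak2* (0.65), named after their values were seen, were also called. *Rfx5*, which binds class I promoters together with NLRC5, stood at 6.81 and 7.93 CPM (0.22, −0.42 to 0.86), and *Rfxap*, its partner, was the lowest (−0.31, −0.74 to 0.13).

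In monocyte/macrophage-like cells 8 of the 18 were called higher and 1 lower (median 0.44), beside 15.9% and 16.5% of all genes. *Irf1* stood at 107 and 238 CPM (1.16, 0.91 to 1.40) and *Jak2*, a kinase of the interferon-γ receptor, was the highest at 55.6 and 246 CPM (2.15, 1.82 to 2.48). *Rfx5* was called on 9 and 66 UMIs, with an interval that held 0 (0.59, −0.42 to 1.59). *Irf8*, a transcription factor of myeloid cells, was the lowest (360 and 234 CPM, −0.62, −0.77 to −0.48). In T cell-like cells *Irf1* stood at 157 and 162 CPM (0.05, −0.11 to 0.21) and *Rfx5* at 0.17 (−0.57 to 0.91).

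*Ifng*, the interferon-γ gene, stood at 82.6 CPM (458 UMIs) in T cell-like cells with control Ab against 166 CPM (483 UMIs) with anti-CD9 Ab (1.01, 0.82 to 1.19). Over all kept cells it stood at 24 and 26.3 CPM (0.14, −0.03 to 0.30), with T cell-like cells at 41.7% and 11.5% of kept cells. Among receptors for class I molecules, *Pirb*, an inhibitory receptor of myeloid cells, was the highest in microglia-like (21 and 43.0 CPM, 1.04, 0.74 to 1.34) and in monocyte/macrophage-like cells (106 and 336 CPM, 1.66, 1.42 to 1.91). *Klrd1*, a receptor subunit of NK and T cells, was the lowest in both, on 86 and 4 UMIs in microglia-like cells (−2.66, −4.10 to −1.21), beside the T cell markers given above, and at 0.19 (−0.84 to 1.21) in monocyte/macrophage-like cells.

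Across the 19 combinations of named cell type and library with at least 50 cells, the members' levels followed each other to different degrees. Pearson's r of log2(CPM + 10), a description over points that share libraries, was 0.96 for *Psmb8* and *Psmb9*, 0.84 for *H2-K1* and *H2-D1* and 0.81 for *Tap1* and *Tap2*. *Nlrc5* was nearest to the transporter genes (0.79 with *Tap2*, 0.71 with *Tap1*) and was at 0.27 with *H2-K1* and 0.21 with *B2m*. Among 11837 genes, the levels most like those of *H2-K1* were those of *Commd6*, *Ap2m1*, *Tomm20*, *H2-Q7* and *H2-T23* (0.92 to 0.90). Those most like *Tap1* were *Baz1a*, *Hcls1*, *Actr3*, *Slfn2* and *Msn* (0.93 to 0.91), and those most like *Nlrc5* were *Mllt6*, *Rnf145*, *Gbp7*, *Nfkb1* and *Ranbp2* (0.91 to 0.85).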

How the data were processed

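The authors deposited raw UMI counts per gene and barcode, 1 matrix per library. The submitters' processing notes name Cell Ranger 8.0.0 and GRCm39, and the study's methods name another version and build. Cells with 200 to 7500 genes and no more than 2% mitochondrial counts were kept, as in the study's methods. Libraries were integrated by anchors in Seurat 5.3.0 (R 4.3.3, 2000 variable genes, 30 principal components, Louvain resolution 0.8) with 81 pathway genes left out. A cluster was named when at least 4 markers of a type, and at least 1 in 3, were up (log2 of 1 over the other cells) and no more than 50% of its cells were predicted doublets, limits set after seeing the data. The share of markers up also had to exceed that of every other type. Clusters whose leading genes held more markers of another type, or that were shallow without a marker among them, stayed unnamed. Doublet scores came from scanpy 1.11.5. Cells with the highest scores, at a preset rate of 0.8% per 1000 barcodes, were marked as predicted doublets and kept. They were 10.3% and 11.4% of kept cells. UMIs were summed per cell type and library into CPM. Ratios have Poisson intervals and shares exact Clopper-Pearson intervals, both at 95%. Only the ratio intervals were checked, on simulated Poisson counts. Both kinds of interval cover counting error only. A call was at least 1.5-fold in CPM among genes with 50 or more UMIs over both libraries. The members and lists were chosen with earlier results of these data known. Genes named were the 9 members, the highest and lowest of each list in microglia-like and monocyte/macrophage-like cells, *Ifng*, *Irf1* and *Rfx5*, and the 5 genes most like *H2-K1*, *Tap1* and *Nlrc5* among genes with 200 or more UMIs. A gene that this rule also names is not reported here. The interferon ligand list held no gene with 50 UMIs in microglia-like or monocyte/macrophage-like cells. Other mitochondrial limits, doublet removal, clustering settings, scalings and thinning were tried as alternatives.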

Additional observations from a re-analysis of the deposited data

How the results depend on the processing

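Under 10 alternatives, the microglia-like median log2 ratio of 0.34 lay between 0.29 and 0.53. It moved past its counting interval under the mean over cells (0.53) and with cells thinned to 1000 UMIs (0.49), and the cause was not tested. The monocyte/macrophage-like median (0.08) lay between −0.03 and 0.12 and the T cell-like median (−0.05) between −0.09 and 0.05, so that the sign of both depended on the setting. The summed ratio over all kept cells (0.19) was 0.56 when centred on the median of all genes, 0.20 without mitochondrial, ribosomal and immunoglobulin genes in the total, 0.196 with thinned cells and 0.093 with up to 5% mitochondrial counts. *Nlrc5* in microglia-like cells stayed between 1.14 and 1.39 and *H2-D1* in monocyte/macrophage-like cells between −0.76 and −0.63, while *H2-D1* in microglia-like cells ranged from −0.05 to 0.24. Of 90 values of single members per cell type, 88 in microglia-like, 85 in monocyte/macrophage-like and 83 in T cell-like cells had the sign reported. In monocyte/macrophage-like cells, *Tap2* passed 1.5-fold under the mean over cells (0.66), with thinned cells (0.63) and with a marker gate on each cell (0.83), *Tap1* with thinned cells (0.70) and *Nlrc5* with the marker gate (0.77). Naming clusters from at least 50% of their markers was an alternative chosen after seeing the data. With no minimum of 50 UMIs, 19.6% of genes were called higher and 13.3% lower in microglia-like cells, 15.1% and 29.9% in monocyte/macrophage-like cells and 15.8% and 16.9% in T cell-like cells, against 9.18% and 9.79%, 15.9% and 16.5%, and 6.73% and 9.80% with it. No paired analysis was possible because each antibody had 1 library, and for the same reason no library could be left out.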

Other observations

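Microglia-like cells were also divided by their UMIs of 6 interferon-stimulated genes (*Ifit1*, *Ifit2*, *Ifit3*, *Isg15*, *Rsad2* and *Oasl2*) after thinning to 1000 UMIs, a list chosen after values were seen. Cells with 1 or more such UMIs were 14.1% of microglia-like cells with control Ab against 30.9% with anti-CD9 Ab. Among neutrophil-like cells of the anti-CD9 Ab library they were 74.4%. Neutrophil markers in microglia-like cells stood at 668 and 1249 CPM, and the part of neutrophil RNA in these shares was not tested. With control Ab, the 9 class I presentation genes stood at 8365 CPM in cells with 0 of these UMIs and at 11091 CPM in cells with 1 or more. With anti-CD9 Ab they stood at 11863 and 11838 CPM. In cells with 0 of these UMIs, *H2-K1* stood at 2718 CPM with control Ab against 4149 CPM with anti-CD9 Ab, *B2m* at 2578 and 3752 CPM, *Tap1* at 85.7 and 169 CPM and *Nlrc5* at 74.9 and 159 CPM. At 1000 UMIs per cell, 0 such UMIs does not show that a cell lacks these transcripts.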
